A study of Mus musculus with 7 samples.

Results

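Transcripts of the myeloid cytokine receptors were examined in the RNA-seq data of LSK cells, the Lin-Sca1+Kit+ bone marrow fraction that contains hematopoietic stem cells and multipotent progenitors. The group was chosen by gene symbol for the function of the encoded proteins and comprised 9 of the 24421 gene symbols counted, Csf1r, Csf3r, Csf2ra, Il3ra, Csf2rb, Csf2rb2, Il6ra, Il6st and Il1r1. All 9 were counted in every sample and passed the expression filter, which retained 13340 genes. To examine heterozygous loss of Ddx41, a DEAD-box RNA helicase gene, LSK cells of 4 Ddx41+/+ samples (replicates 1 to 4) were compared with those of 3 Ddx41+/- samples (replicates 6 to 8).

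The cells came from lethally irradiated BoyJ recipient mice that had received 1000000 donor bone marrow mononuclear cells. Donors carried RosaCreERT2, a tamoxifen-activated recombinase expressed from a ubiquitously active locus. The number of donor cells and the number of sorted LSK cells were the same for all samples of both genotypes. Ddx41+/- donors carried a heterozygous floxed Ddx41 allele and Ddx41+/+ donors were wild-type at Ddx41, so both genotypes carried the recombinase. Recipients of both kinds were given 1 mg of tamoxifen daily in 2 rounds of 5 days, and the sort was done 8 weeks after the transplant. Ages were not given in the sources used here. The labels do not state that remaining recipient cells were excluded from the sorted fraction. Ddx41 itself was measured at 92.8 to 106.6 CPM (counts scaled to a library of 1000000) in the wild-type group. The Ddx41+/- samples held 64.4 to 69.5 CPM, a mean of 68.8% of the Ddx41+/+ level (edgeR, Benjamini-Hochberg (BH) adjusted p = 0.0052).

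These receptors receive the hematopoietic growth factors and inflammatory cytokines that drive granulocyte and macrophage production. Csf1r is a receptor tyrosine kinase, whereas the GM-CSF, IL-3, G-CSF and IL-6 receptors are cytokine receptors without a kinase domain that signal through associated JAK kinases and STAT factors. The GM-CSF and IL-3 receptors pair a ligand-specific alpha chain with a shared beta chain, the IL-6 receptor pairs its alpha chain with gp130, and the IL-1 receptor acts through MyD88 and NF-kB. In hematopoietic stem cells IL-1 and IL-6 signals are known to favor myeloid output.

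Total counts ranged from 32234499 to 43751290 per sample, and the 9 receptors together took 0.0768% to 0.0929% of them. The lowest receptor count was 545, for which counting error alone gives a coefficient of variation of 4.28% if each count is 1 independent fragment. The sources used here do not say if a count stands for a read or a pair, and this error would be larger if both reads of a pair were counted. The biological coefficient of variation over all genes was 12.9%. Ddx41+/- replicate 7 stood apart on the first principal component of the 500 most variable genes, with a score of 35.7 against -12.9 to 0.239 in the other samples, and each receptor whose value moved by over 1.5 times without it is given with that value. Of the markers of the sorted fraction, Kit was at 427.1 to 505.1 CPM and Cd34 at 646.7 to 830.0 CPM in all samples, while Ly6a, which encodes Sca1, was at 13.3 to 30.5 CPM. The granulocyte-monocyte progenitor gene Mpo was at 12909.3 to 17267.3 CPM. In bulk RNA, fewer cells of a type and less RNA per cell cannot be told apart.

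The receptor transcripts did not pass the test for a genotype difference. With the quasi-likelihood test of edgeR, 0 of 9 had a BH-adjusted p under 0.05, where 0.217% of all genes tested were called. DESeq2, limma-voom and limma-voom with sample weights called 0 of the 9 as well. At an unadjusted p under 0.05, 1 of 9 receptors was called by edgeR, against 10.6% of all genes, and that receptor was Il1r1, which was lower in Ddx41+/- cells, a direction taken by 4.93% of all genes. The CPM of the genotypes did not overlap for 1 of 9 receptors, again Il1r1, against 10.1% of all genes and 5.21% in the lower direction. These shares were near the background. The sign of the difference was positive for 8 of 9 receptors, against 48.8% of all genes, and the median log2 fold change was 0.12 over the receptors and -0.0048 over all genes. The 8 positive values ranged from 0.03 to 0.21, and none of them passed the test. The 5 granulocyte-monocyte progenitor markers also had positive values, with a median log2 fold change of 0.17, and 3 of them, among them Mpo and Elane, were higher at an unadjusted p under 0.05 in edgeR, where 5.70% of all genes were called in that direction. Their sum was 19092.6 to 22991.2 CPM in Ddx41+/+ and 23769.3 to 25209.3 CPM in Ddx41+/- samples, without overlap, and the part of such cells in the receptor values was not tested.

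**Figure D1:**
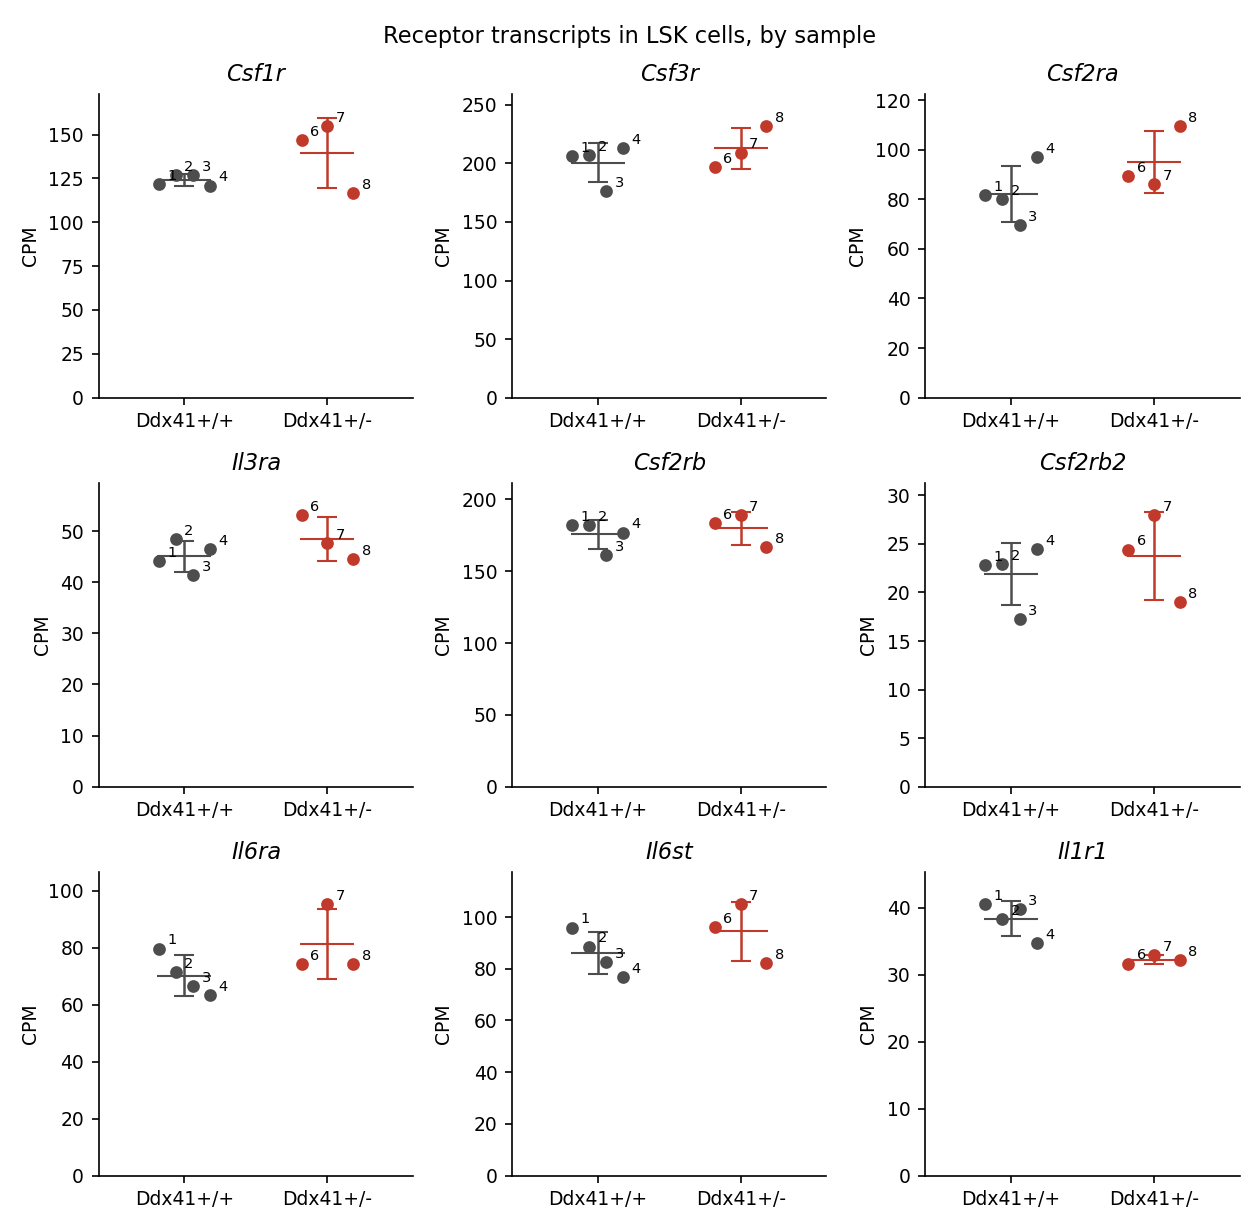
CPM of each receptor gene (vertical axes, starting at 0) in Ddx41+/+ (grey, n = 4) and Ddx41+/- (red, n = 3) samples. Points are samples with their replicate number, horizontal lines the mean and bars the SD. The genotypes overlap for 8 receptors and are separate for Il1r1.

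Csf1r encodes the receptor of M-CSF, which directs cells toward monocytes and macrophages. It was at 121.8, 126.9, 126.9 and 120.9 CPM in Ddx41+/+ replicates 1 to 4 and at 146.8, 154.8 and 116.8 CPM in Ddx41+/- replicates 6 to 8. The Ddx41+/+ samples lay close together, whereas the Ddx41+/- samples held both the highest values and the lowest one. The mean was 124.1 ± 3.22 CPM (SD, n = 4) against 139.5 ± 20.0 CPM (SD, n = 3), with a log2 fold change of 0.17 (SE 0.08, 95% interval -0.01 to 0.34, edgeR BH-adjusted p = 0.499). Without Ddx41+/- replicate 7, the highest sample, the log2 fold change was 0.09 and the adjusted p was 0.89, and without replicate 8, the lowest, they were 0.28 and 0.189. A list of 15 monocyte and macrophage genes summed to 1425.3 to 1740.1 CPM in Ddx41+/+ samples and to 1919.0, 2309.1 and 1665.2 CPM in Ddx41+/- replicates 6, 7 and 8, the same order as Csf1r among those 3 samples. Of that list, 12 genes had a positive and 3 a negative log2 fold change, where 48.8% of all genes had a positive value. At an unadjusted p under 0.05 in edgeR, 2 genes of monocytes were higher, Ccr2 (0.31) and F13a1 (0.42), against 5.70% of all genes. Of the macrophage genes in the list, Cd5l was below 4 CPM in all samples. Mrc1 reached 8.6 CPM in Ddx41+/- replicate 7, and Vcam1 was at 33.7 to 53.0 CPM in all samples. The part of these cells in the Csf1r values was not tested.

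The gene lies at chr18:61100598-61132149 on the plus strand (GRCm38, the same assembly as mm10) and shares sequence with Hmgxb3, which overlaps it on the opposite strand. Of 4627 stretches of 75 bases in Csf1r exons, 799 (17.3%) also belong to Hmgxb3 exons. Hmgxb3 averaged 71.2 ± 2.91 CPM (SD, n = 4) without the deletion and 64.7 ± 2.45 CPM (SD, n = 3) with it, with a log2 fold change of -0.14, opposite in sign to that of Csf1r. Whether the counting used strand is not given in the sources used here, so the reads of these genes in the shared stretch cannot be told apart.

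Csf3r encodes the G-CSF receptor, which supports neutrophil production. It was at 206.3, 206.9, 176.1 and 213.3 CPM in Ddx41+/+ and at 196.9, 209.2 and 231.8 CPM in Ddx41+/- samples. Only Ddx41+/- replicate 8 lay above the Ddx41+/+ samples. The log2 fold change was 0.08 (SE 0.08, 95% interval -0.08 to 0.24, BH-adjusted p = 0.745). It was 0.02 without that replicate, 0.03 without Ddx41+/+ replicate 3, the lowest sample, and 0.14 without Ddx41+/- replicate 6. Of 14 mature neutrophil genes in the files, 11 were higher in Ddx41+/- cells at an unadjusted p under 0.05, where 5.70% of all genes were called in that direction, and Mmp9 also passed after adjustment (BH-adjusted p = 0.00677). Their sum was 979.9 to 1524.9 CPM in Ddx41+/+ samples and 2640.5, 1895.9 and 1604.9 CPM in Ddx41+/- replicates 6, 7 and 8, the reverse of the order of Csf3r in those samples. Cxcr2, the chemokine receptor of mature neutrophils, was at 7.52 to 10.5 CPM and 6.14 to 10.1 CPM. Of 3407 stretches of 75 bases in Csf3r exons, 116 (3.4%) were also found in another gene, most often AC105061.2 with 97.

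Levels of different receptors were compared per kb of exon. Csf3r was the most abundant at 58.7 CPM per kb over the 7 samples, followed by Csf2ra at 47.1, Csf2rb at 33.9, Csf1r at 26.8 and Il3ra at 18.2 CPM per kb. Il6ra at 8.68, Il6st at 8.17, Il1r1 at 5.85 and Csf2rb2 at 4.79 CPM per kb were lower. Csf3r thus lay at percentile 90.2 of the genes tested on this scale and Csf2rb2 at percentile 37.8. Each neighbor in this order kept its place in 7 of 7 samples, except that Il6ra exceeded Il6st, and Il1r1 exceeded Csf2rb2, in 6 of 7. With the length of the longest transcript in place of all exons, Il6st was at 10.3 CPM per kb and above Il6ra, so these neighbors have no fixed order.

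**Figure D2:**
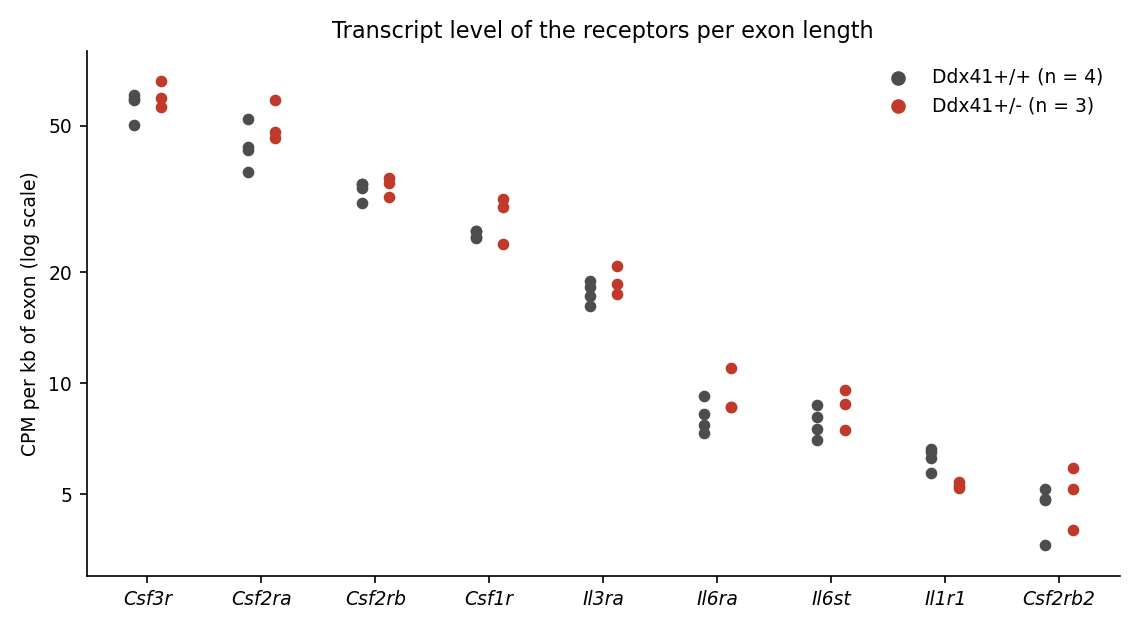
Receptor levels as CPM per kb of exon (vertical log axis) for the 9 receptor genes in descending order of the mean, with Ddx41+/+ samples in grey and Ddx41+/- samples in red. The levels span from 3.63 to 66.1 CPM per kb, and the genotypes differ by much less than the receptors do.

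The beta chains of the GM-CSF, IL-3 and IL-5 receptors are encoded by neighboring genes in opposite orientation, Csf2rb at chr15:78325752-78353847 on the plus strand and Csf2rb2 at chr15:78282507-78305721 on the minus strand. Csf2rb encodes the common beta chain, and the Csf2rb2 product serves the IL-3 receptor. Their coding sequences, of 2688 and 2634 bases, were identical at 2503 of 2628 aligned bases (95.2%), and 518 stretches of 75 bases occurred in both, 10.7% of those of Csf2rb and 11.1% of those of Csf2rb2. Reads from these stretches cannot be assigned to one gene, so both values are uncertain. The window of 90 coding bases in which the genes differ most is shown, from the GRCm38 transcripts and with the differing bases in capitals, since reads across it tell the genes apart. It holds 16 differences and lies within 1 exon at chr15:78338897-78338986 in Csf2rb and chr15:78294345-78294434 in Csf2rb2.
Csf2rb: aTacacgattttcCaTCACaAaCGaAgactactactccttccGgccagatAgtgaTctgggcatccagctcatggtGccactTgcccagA
Csf2rb2: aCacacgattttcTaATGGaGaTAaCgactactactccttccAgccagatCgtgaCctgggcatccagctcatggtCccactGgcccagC
The longest coding stretch without a difference, of 242 bases, is longer than a read and lies at chr15:78348577-78348818 (plus) in Csf2rb and at chr15:78284630-78284871 (minus) in Csf2rb2.
Csf2rb and Csf2rb2: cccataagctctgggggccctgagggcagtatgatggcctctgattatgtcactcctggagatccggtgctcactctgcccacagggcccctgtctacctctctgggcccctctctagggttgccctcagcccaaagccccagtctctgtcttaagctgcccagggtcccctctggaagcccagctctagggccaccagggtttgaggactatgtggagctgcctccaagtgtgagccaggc

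Csf2rb was at 182.1, 182.1, 161.4 and 176.9 CPM in Ddx41+/+ and at 183.3, 189.1 and 167.1 CPM in Ddx41+/- samples, with overlapping groups. Its log2 fold change of 0.03 (SE 0.07, 95% interval -0.11 to 0.18, BH-adjusted p = 0.899) was the smallest of the receptors. The interval corresponds to a Ddx41+/- level of 0.928 to 1.13 times that of Ddx41+/+. With 1 sample left out the log2 fold change was between -0.0045, without Ddx41+/- replicate 7, and 0.0841, without replicate 8. Csf2rb2 was at 22.9, 22.9, 17.2 and 24.5 CPM in Ddx41+/+ and at 24.4, 28.0 and 19.0 CPM in Ddx41+/- samples, and its log2 fold change of 0.12 (SE 0.14, 95% interval -0.18 to 0.42, BH-adjusted p = 0.819) had the widest interval. Leaving out the same replicates gave -0.0141 and 0.258, and leaving out Ddx41+/+ replicate 3 gave 0.02. Both genes were lowest in the same sample of each genotype, replicate 3 and replicate 8.

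Csf2rb2 took 11.2%, 11.2%, 9.64% and 12.2% of the counts of both genes in Ddx41+/+ samples and 11.8%, 12.9% and 10.2% in Ddx41+/- samples. The mean share was 11.04 ± 1.05% (SD, n = 4) against 11.6 ± 1.35% (SD, n = 3), a difference within the spread between samples (exact two-sided permutation p = 0.543). The sum of both genes, which does not depend on how reads were split between them, was 197.5 ± 12.7 CPM (SD, n = 4) against 203.6 ± 15.9 CPM (SD, n = 3, exact permutation p = 0.571). With 4 and 3 samples the smallest p this test can give is 0.0286. The handling of shared reads is not given, and any counted for neither gene or for both would still affect the sum.

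Csf2ra, the alpha chain gene of the GM-CSF receptor, was at 81.7, 80.1, 69.7 and 96.9 CPM in Ddx41+/+ and at 89.4, 86.2 and 109.5 CPM in Ddx41+/- samples. The groups overlapped, and only Ddx41+/- replicate 8 exceeded the highest Ddx41+/+ sample. Its log2 fold change of 0.21 (SE 0.11, 95% interval -0.02 to 0.44, BH-adjusted p = 0.514) was the largest positive value of the receptors. Without that replicate it was 0.10 (adjusted p = 0.856 in edgeR), without Ddx41+/+ replicate 3 it was 0.14, and without Ddx41+/+ replicate 4 it was 0.30 (adjusted p = 0.336). The gene lies at chr19:61223957-61228429 on the minus strand and overlaps no annotated gene.

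Il3ra, the alpha chain gene of the IL-3 receptor, was at 44.1, 48.4, 41.4 and 46.5 CPM in Ddx41+/+ and at 53.1, 47.6 and 44.6 CPM in Ddx41+/- samples. Only Ddx41+/- replicate 6 exceeded the Ddx41+/+ samples, and the log2 fold change was 0.10 (SE 0.09, 95% interval -0.08 to 0.28, BH-adjusted p = 0.722). It was 0.03 without that replicate (BH-adjusted p = 0.923), 0.06 without Ddx41+/+ replicate 3 and 0.16 without Ddx41+/- replicate 8. A list of 7 mast cell, basophil and eosinophil genes summed to 277.4 to 422.6 CPM in Ddx41+/+ samples. Among them, replicate 3 had the highest sum and the lowest Il3ra value, so the orders differed. In Ddx41+/- replicates 6, 7 and 8 the sum was 501.6, 496.3 and 348.0 CPM, the same order as Il3ra among those samples only. Most of this sum was the eosinophil gene Prg2, at 334.8, 320.6 and 204.4 CPM. Cpa3, of mast cells and basophils, was at 15.7, 15.8 and 19.9 CPM in the same samples. At an unadjusted p under 0.05 in edgeR, 0 of the 7 were higher and 1, Cpa3, was lower, against 5.70% and 4.93% of all genes. The part of such cells in the Il3ra values was not tested. Il3ra lies at chr14:14346275-14356011 on the plus strand, and overlaps the antisense gene Gm48860, although none of its 75-base exon stretches was found in another gene.

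The IL-6 receptor is formed by the products of Il6ra and Il6st. Il6ra, the gene of the ligand-binding chain, was at 79.7, 71.4, 66.5 and 63.4 CPM in Ddx41+/+ and at 74.2, 95.3 and 74.4 CPM in Ddx41+/- samples. Ddx41+/- replicate 7 was the highest sample and the other Ddx41+/- samples lay within the Ddx41+/+ range. The log2 fold change was 0.21 (SE 0.10, 95% interval -0.0004 to 0.42, unadjusted p = 0.0504 and BH-adjusted p = 0.472 in edgeR), and without replicate 7 it was 0.08 (BH-adjusted p = 0.909). Il6ra lies at chr3:89864059-89913196 on the minus strand, and 1.99% of its stretches belong to the antisense gene Gm42809.

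Il6st encodes gp130, the signaling chain shared by the receptors of IL-6, IL-11, LIF and oncostatin M. It was at 95.9, 88.6, 82.6 and 76.8 CPM in Ddx41+/+ and at 96.1, 105.0 and 82.1 CPM in Ddx41+/- samples, with overlapping groups and again its highest value in Ddx41+/- replicate 7. The log2 fold change was 0.13 (SE 0.09, 95% interval -0.06 to 0.33, BH-adjusted p = 0.644). It was 0.05 without that replicate (BH-adjusted p = 0.954), 0.08 without Ddx41+/+ replicate 4 and 0.23 without Ddx41+/- replicate 8 (BH-adjusted p = 0.533). The gene lies at chr13:112464070-112510086 on the plus strand, and no other gene held its stretches of 75 bases.

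Il1r1, the gene of the signaling IL-1 receptor at chr1:40225080-40317257 on the plus strand, was the receptor with a negative difference. It was at 40.6, 38.4, 39.8 and 34.8 CPM in Ddx41+/+ and at 31.7, 33.0 and 32.2 CPM in Ddx41+/- samples. Every Ddx41+/- sample lay below every Ddx41+/+ sample. The mean of 32.3 ± 0.640 CPM (SD, n = 3) in Ddx41+/- was 84.1% of the 38.4 ± 2.58 CPM (SD, n = 4) in Ddx41+/+ samples. The log2 fold change was -0.25 (SE 0.09, 95% interval -0.43 to -0.07). Its unadjusted p was 0.0101 in edgeR, its BH-adjusted p was 0.313, and the exact two-sided permutation test of the CPM gave p = 0.0571. The difference is therefore not established over the genes tested. In 17 alternative fits the log2 fold change lay between -0.30 and -0.22, the unadjusted p between 0.00475 and 0.0306 and the adjusted p between 0.223 and 0.544. None of its exon stretches was shared with another gene.

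Most marker genes of the LSK fraction also had lower values in Ddx41+/- samples. Of 10 LSK markers, 7 were lower at an unadjusted p under 0.05 in edgeR, against 4.93% of all genes. After adjustment 0 passed in this fit and 0 in limma-voom, while Hlf passed in DESeq2 and in edgeR without the expression filter, and Flt3 in edgeR without Ddx41+/- replicate 6. The 10 markers had a median log2 fold change of -0.31. Hlf, a transcription factor gene of stem cells, was at 115.5, 104.5, 90.2 and 89.9 CPM in Ddx41+/+ and at 75.9, 65.3 and 77.4 CPM in Ddx41+/- samples. The summed markers were at 1753.8 to 1942.7 CPM in Ddx41+/+ and 1629.3 to 1766.5 CPM in Ddx41+/- samples, with overlap. The log2 fold change of Kit was 0.00. The part of a different cell makeup in the Il1r1 values was not tested. Among 8881 genes with a mean of at least 10 CPM, those most like Il1r1 across the 7 samples were Iah1 (r = 0.981), Gcnt2 (r = 0.98) and Pdcd7 (r = 0.975), with rank correlations of 0.964, 0.893 and 0.929. Without the 2 samples farthest from the median r was 0.983, 0.975 and 0.988. These values describe the samples and share the genotype difference and the libraries. The genes were picked for their r in these same samples, so the other correlations are no independent test of it.

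**Figure D3:**
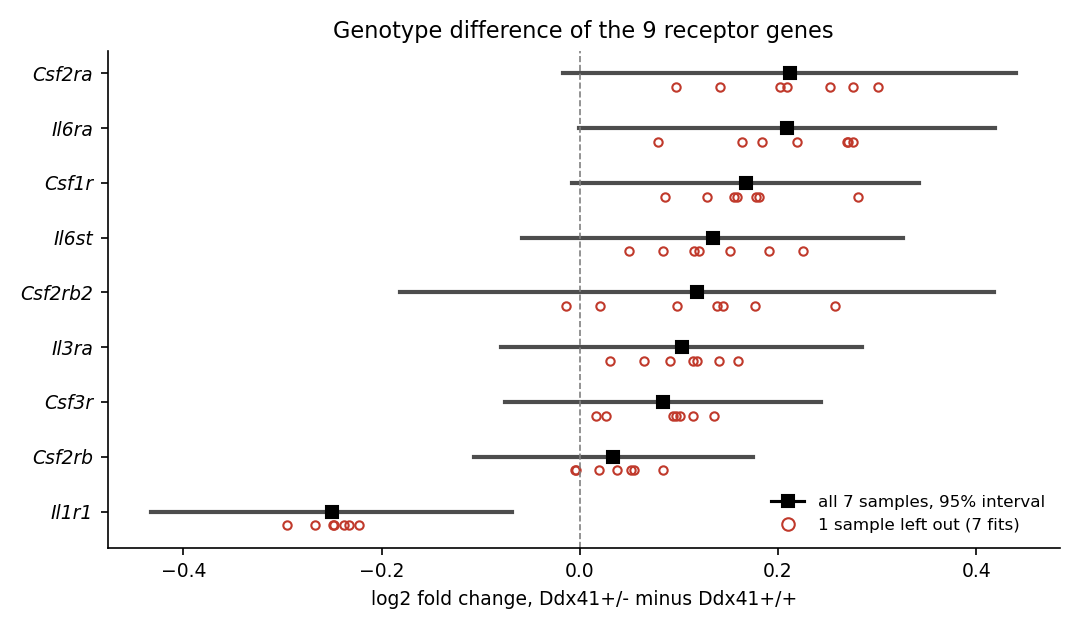
Log2 fold change of each receptor gene, Ddx41+/- minus Ddx41+/+ (horizontal axis). Squares and lines give the value and 95% interval from all 7 samples, and circles the values with 1 sample left out. The interval of Il1r1 lies below 0 and those of the other 8 include 0.

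None of the 9 intervals reached below 0.741 times or above 1.36 times the Ddx41+/+ level. Larger differences than these lay outside the 95% intervals of all 9 receptors in this fit. The bounds differed by receptor, and for Csf2rb they were 0.928 and 1.13 times the Ddx41+/+ level. Differences within a receptor's own interval could not be resolved with 4 and 3 samples.

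The receptors did not vary as a block between samples of one genotype. Within Ddx41+/+ samples, replicate 3 was lowest for 5 receptors and replicate 4 for the other 4. Within Ddx41+/- samples, replicate 7 was highest for 6 receptors, and replicate 8 was lowest for 5 and highest for Csf2ra and Csf3r. Deviations from the genotype mean had the same sign in 7 of 7 samples for Csf2rb and Csf2rb2, which share sequence, and in 6 of 7 for 5 of the 36 pairs, among them Csf2ra with Csf3r and Il6ra with Il6st. Csf1r and Csf2ra deviated in opposite directions in all samples, with 0 of 7 of the same sign. The summed CPM of the 9 receptors was 781.6 to 874.9 in Ddx41+/+ and 877.4 to 948.2 in Ddx41+/- samples. These ranges were separate by a narrow margin that rested on the TMM scaling of the libraries, and 8 of the single receptors overlapped. As a share of all counts, Ddx41+/+ replicate 1 (36188 of 40645611) lay above Ddx41+/- replicate 8 (38919 of 43751290), so the groups overlapped.

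Ratios of chains that act together, chosen after the values were seen, were computed per kb of exon. Csf2ra exceeded Csf2rb by a ratio of 1.31 ± 0.153 (SD, n = 4) in Ddx41+/+ samples, against 1.498 ± 0.301 (SD, n = 3) in the other genotype (exact permutation p = 0.343). Il3ra to Csf2rb was 0.526 ± 0.0216 against 0.552 ± 0.0394 (exact permutation p = 0.4). Il6ra to Il6st was 1.04 ± 0.0173 against 1.09 ± 0.0983 (exact permutation p = 0.314). This ratio depends on the exon length used, as given above for the order of these transcripts. Il1r1 to Il1rap, the accessory protein of the IL-1 receptor, was 2.23 ± 0.392 against 1.76 ± 0.212 (exact permutation p = 0.143). The 4 ratios had the same BH-adjusted value of 0.4, and none of the differences passed the test.

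PU.1 (encoded by Spi1) is a known activator of myeloid receptor genes and binds DNA with the core GAGGAA. In the RefSeq promoters of GRCm38.p6, which span 250 bases before to 50 bases after a gene's start, 7 of the 9 receptor genes had an entry, with 2 starts for Il1r1. Motifs were searched on both strands. The PU.1 core occurred in the promoters of Csf2ra, Csf2rb2, Csf3r and Il6ra and in 28.3% of 32851 promoters, while the windows of Il1r1, Il3ra and Il6st did not hold these letters. Of TTNNGNAA, the letters bound by C/EBP factors, at least 1 copy was found in Csf2ra, Csf2rb2, Il6ra, Il3ra and both Il1r1 windows and in 40.7% of all promoters. The promoters of the 2 receptors with the highest level per kb, at chr4:126024409-126024708 (plus strand, Csf3r) and chr19:61228369-61228668 (minus strand, Csf2ra), and that of the receptor with the negative difference, at chr1:40224830-40225129 (plus strand, Il1r1), are shown 5′ to 3′ with the PU.1 core in capitals.
Csf3r: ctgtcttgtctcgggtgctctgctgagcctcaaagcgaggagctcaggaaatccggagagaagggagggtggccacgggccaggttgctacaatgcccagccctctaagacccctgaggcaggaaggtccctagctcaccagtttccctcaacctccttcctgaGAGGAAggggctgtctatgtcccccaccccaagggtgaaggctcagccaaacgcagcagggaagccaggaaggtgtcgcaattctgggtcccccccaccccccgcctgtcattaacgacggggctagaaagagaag
Csf2ra: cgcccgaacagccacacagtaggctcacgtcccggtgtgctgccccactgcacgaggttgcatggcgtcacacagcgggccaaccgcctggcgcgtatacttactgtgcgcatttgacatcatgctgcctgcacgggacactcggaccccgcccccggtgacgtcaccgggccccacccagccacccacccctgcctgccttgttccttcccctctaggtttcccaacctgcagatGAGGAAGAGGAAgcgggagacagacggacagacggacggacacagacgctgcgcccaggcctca
Il1r1: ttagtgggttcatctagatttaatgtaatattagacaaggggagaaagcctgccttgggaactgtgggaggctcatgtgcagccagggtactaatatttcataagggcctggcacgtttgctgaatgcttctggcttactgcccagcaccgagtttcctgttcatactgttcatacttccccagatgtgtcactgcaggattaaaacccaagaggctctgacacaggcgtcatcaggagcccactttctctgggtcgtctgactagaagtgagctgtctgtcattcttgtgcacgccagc
The core lies 86 bases before the RefSeq start of Csf3r, and in Csf2ra it occurs as a pair of adjacent copies 14 and 8 bases before the RefSeq start. These starts differ from the gene bounds of GENCODE M21. By those bounds the Csf3r core lies inside the gene, which starts at chr4:126024550, and the Csf2ra pair lies across the gene's start at chr19:61228429.

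Of the 9 genes for transcription factors known to act on receptor genes, 1 had an unadjusted p under 0.05 in edgeR, against 10.6% of all genes. After adjustment 0 passed. That gene was Cebpe, a factor of granulocyte maturation, at 33.0, 34.9, 37.9 and 43.4 CPM in Ddx41+/+ and 41.0, 42.8 and 45.8 CPM in Ddx41+/- samples (log2 fold change 0.21, unadjusted p = 0.0436). Myb, a factor of progenitor proliferation, differed by 0.07 on the log2 scale (BH-adjusted p = 0.735).

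Of 15 genes for ligands of the receptors, 7 passed the expression filter and 8 did not. Csf2 and Il3, which encode GM-CSF and IL-3, had 0 counts in all samples, for which a limit of 3 counts corresponds to 0.0686 to 0.0931 CPM. Csf3 and Il6 did not exceed 0.0829 and 0.166 CPM. Csf1 and Osm were the most abundant ligands. Osm, which encodes the gp130 ligand oncostatin M, was at 11.3, 10.3, 11.8 and 15.4 CPM in Ddx41+/+ and 13.2, 16.9 and 16.5 CPM in Ddx41+/- samples (log2 fold change 0.35, unadjusted p = 0.0354, BH-adjusted p = 0.425 in edgeR). Csf1 had a log2 fold change of -0.27 (BH-adjusted p = 0.524).

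Partner and related receptors were measured beside the 9 receptors. Of 14 such genes 12 were tested, with 1 higher and 1 lower at an unadjusted p under 0.05, against 5.70% and 4.93% of all genes. Il18r1, the IL-18 receptor chain of the same family as Il1r1, was at 6.96, 3.60, 6.38 and 5.28 CPM in Ddx41+/+ and at 3.40, 1.39 and 2.89 CPM in Ddx41+/- samples. These groups did not overlap, and the log2 fold change was -1.11 (SE 0.30, edgeR unadjusted p = 0.0022, BH-adjusted p = 0.187). Il1rl2, the IL-36 receptor gene, had a positive value of 0.34 (unadjusted p = 0.0359 in edgeR). The IL-1 decoy receptor gene Il1r2 was at 1.04 to 1.79 CPM in all samples. The oncostatin M receptor gene Osmr was at most at 0.0829 CPM, while Il6st and Osm were both detected.

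A list of 23 other hematopoietic receptors held mostly cytokine receptors, together with the Toll-like receptor genes Tlr2 and Tlr4 and with Tek. In this list 20 genes had a negative and 3 a positive log2 fold change, with a median of -0.09. A negative value was found for 51.2% of all genes. Of the 23, 4 were lower at an unadjusted p under 0.05, against 4.93% of all genes, 0 were higher and 0 passed after adjustment in edgeR. Flt3, the receptor gene of multipotent and lymphoid-primed progenitors, was at 262.0, 264.4, 252.6 and 221.6 CPM in Ddx41+/+ and at 243.9, 164.1 and 183.9 CPM in Ddx41+/- samples (log2 fold change -0.34, BH-adjusted p = 0.355). Tek, the angiopoietin receptor gene of quiescent stem cells, had a log2 fold change of -0.40 (BH-adjusted p = 0.358).

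The smallest p-values of the pathway lists belonged to inhibitor and target genes of receptor signaling. Over all 8 lists, which hold 135 genes, 125 were tested, 20 had an unadjusted p under 0.05, against 10.6% of all genes, and 0 had a BH-adjusted p under 0.05 in edgeR. DESeq2 called 4 of them, Il18r1, Dok2, Cish and Pim2, and limma-voom called 0. Cish encodes an inhibitor that STAT5 induces downstream of the beta chain receptors. It was at 17.0, 13.4, 12.9 and 10.5 CPM in Ddx41+/+ and at 9.06, 7.48 and 6.88 CPM in Ddx41+/- samples, without overlap (log2 fold change -0.78, SE 0.17, edgeR BH-adjusted p = 0.0792).

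Dok2 encodes an adaptor that restrains RAS signaling in myeloid cells. It was at 30.9, 28.4, 28.2 and 31.7 CPM in Ddx41+/+ and at 20.2, 21.7 and 23.2 CPM in Ddx41+/- samples, again without overlap (log2 fold change -0.46, SE 0.10, edgeR BH-adjusted p = 0.065). Of the 21 inhibitor genes, 4 were lower and 2 were higher at an unadjusted p under 0.05, against 4.93% and 5.70% of all genes, and the median log2 fold change was -0.03. The kinase genes Pim1 and Pim2 are induced by STAT5, and Pim2 was at 26.4, 22.0, 23.1 and 19.6 CPM in Ddx41+/+ and at 15.2, 18.5 and 14.1 CPM in Ddx41+/- samples. Its log2 fold change was -0.52 (edgeR BH-adjusted p = 0.124) and that of Pim1 was -0.29 (BH-adjusted p = 0.203). The 18 target genes included 1 higher and 2 lower at an unadjusted p under 0.05, against 5.70% and 4.93% of all genes. The median of these 18 was 0.00, so that Cish, Pim1 and Pim2 were not typical of the lists they belong to.

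In the 24 JAK-STAT and RAS signaling genes the median log2 fold change was -0.01. At an unadjusted p under 0.05, 1 gene was higher and 1 lower, against 5.70% and 4.93% of all genes. The lower one was Hras, a RAS family gene, with a log2 fold change of -0.19 (edgeR BH-adjusted p = 0.423). Of 11 genes of IL-1 receptor signaling, 1 was lower at an unadjusted p under 0.05, against 4.93% of all genes. That gene was Ikbkg, which encodes the regulatory subunit of the IkB kinase (log2 fold change -0.24, edgeR BH-adjusted p = 0.347). Map3k7, the gene of the TAK1 kinase, had a value of 0.12 (BH-adjusted p = 0.561).

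**Figure D4:**
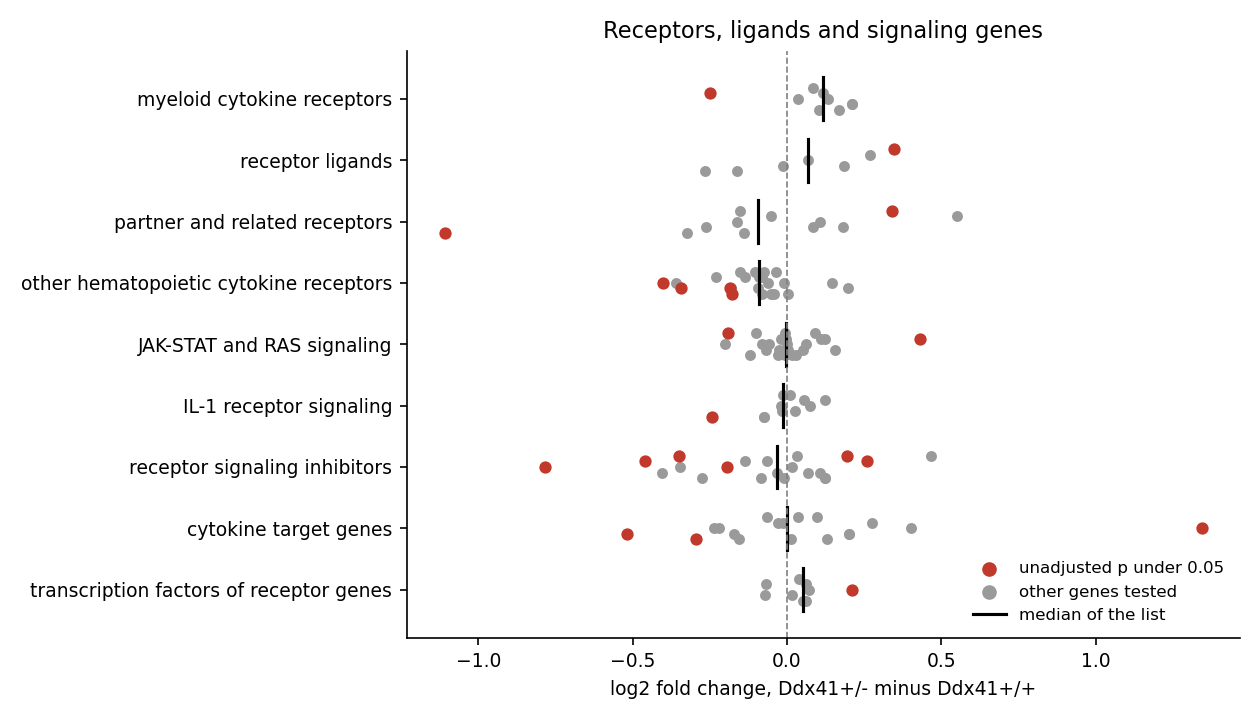
Log2 fold change, Ddx41+/- minus Ddx41+/+ (horizontal axis), of the 9 receptors (top row) and of the tested genes of 8 lists of ligands, related receptors and signaling genes. Red points have an unadjusted p under 0.05 and black lines mark the median of each list. The receptor median is 0.12 and the other medians lie between -0.09 and 0.07.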

How the data were processed

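RNA-seq was measured in LSK cells of 4 Ddx41+/+ and 3 Ddx41+/- samples, grouped by the genotype in the labels. The authors deposited raw gene counts per symbol, whole numbers with no normalization. The submitters' processing notes name FastQC 0.11.7, HISAT2 2.0.5, featureCounts 1.5.2 and mm10, and the labels name a stranded mRNA kit, whereas the study's methods name an unstranded poly(A) kit. The strand setting of the counting and the handling of reads shared between genes are not given in the sources used here. The name of the deposited counts states that a Ddx41+/- library numbered 5 was removed. It was not analysed here. Of the sample columns, 0 were left unused. Samples came from recipient mice, and where the labels do not tell animals apart, p-values measure the spread between these samples.

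The 9 receptors and the gene lists, written from general knowledge, were chosen with earlier results of these data known. The genotype test was edgeR's quasi-likelihood F test (version 4.0.16, R 4.3.3) with TMM scaling, filterByExpr and a robust dispersion, fitted over all 13340 genes, with Benjamini-Hochberg adjustment over these genes and a threshold of 0.05. The script was checked on simulated data. CPM used TMM-scaled library sizes, and log2 CPM a prior count of 2. For single values, all 35 assignments of 4 and 3 samples were enumerated in an exact permutation test, two-sided. Levels per kb used the exons of GENCODE M21, and shared sequence was counted as identical stretches of 75 bases in exons of more than 1 gene, on either strand. Coding sequences were aligned with Biopython 1.88. Besides the receptors and Ddx41, the genes named were the 2 with the smallest p of each pathway list and, for receptors with an unadjusted p under 0.05, the 3 genes of highest correlation. Other genes, among them Hlf, Mmp9, Cxcr2, Mpo, Elane, Ccr2, F13a1, Cd5l, Il1r2, Osmr and Hmgxb3, were chosen after their values were seen. Mrc1, Vcam1, Prg2 and Cpa3 were chosen in the same way. Alternatives were other scalings and filters, DESeq2 1.42.0, limma-voom (limma 3.58.1) with and without sample weights, a non-robust fit, Csf2rb and Csf2rb2 summed, and each sample left out. Counting intervals cover counting error only. Single values of some list genes are not reported here.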

Additional observations from a re-analysis of the deposited data

How the results depend on the processing

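All 17 alternatives gave 0 of 9 receptors with a BH-adjusted p under 0.05, and Il1r1 kept an unadjusted p under 0.05 in each of them. The number of receptors with an unadjusted p under 0.05 was 1 in the reported fit, 2 with median-of-ratios scaling (Il6ra added), 3 without an expression filter (Csf1r and Il6ra added), 3 in DESeq2 (Csf2ra and Il6ra added), 2 in limma-voom with sample weights (Csf2ra added) and 1 to 4 with 1 sample left out. The 4 arose without Ddx41+/- replicate 8 (Il1r1, Csf1r, Il6ra and Il6st), which was lowest for 5 receptors. The 3 without Ddx41+/+ replicate 1 were Il1r1, Il6ra and Il6st. The number of receptors without overlap was 1 to 4 with 1 sample left out, again highest without Ddx41+/- replicate 8. With 1 sample left out, the log2 fold change of Csf2rb lay between -0.0045 and 0.0841 and that of Csf2rb2 between -0.0141 and 0.258. The sign of Csf2rb changed without Ddx41+/+ replicate 3 (-0.0042) and that of both without Ddx41+/- replicate 7, where 6 of 9 receptors remained positive in sign. Over all genes, the number called was 29 in the reported fit, 15 with library totals only, 91 without the filter, 149 in DESeq2, 10 in limma-voom, 14 with the non-robust fit and 7 to 41 with 1 sample left out. Of the 125 pathway genes tested, Dok2, Cish and Pim2 passed without the filter, Il18r1 passed with them in DESeq2, and Flt3 passed without Ddx41+/- replicate 6. Of the LSK markers, Hlf passed without the filter and in DESeq2. No paired analysis was possible because the replicate numbers of the genotypes, 1 to 4 and 6 to 8, do not overlap. With 3 Ddx41+/- samples, differences within the 95% intervals could not be resolved.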
